A study of Oryza sativa Japonica Group with 24 samples.

Results

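Gene expression in rice anthers in the early night, at 20:00, was compared between short-day (SD) and long-day (LD) plants. The comparison rests on 4 of the 24 RNA-seq libraries of the series, with 2 biological replicates in SD and 2 in LD, chosen by photoperiod and sampling time alone. All plants were the wild-type japonica variety 9522 grown in paddy fields near Shanghai. LD plants kept natural daylight of about 14 h, and SD plants were under black cloth at the end of each day, which left them 12 h of light, from panicle initiation until sampling. Anthers were staged as mitosis I, when the microspore divides, by their length. By the study's description 20:00 was in darkness for both groups. The sampling time of the LD libraries is in doubt, however. Count totals of all 12 SD columns are in one steady ratio to the mapped read numbers listed by the study for the same libraries, but those of all 12 LD columns are in that ratio only to the numbers listed for the LD libraries of the preceding sampling time. Either the list or the LD column names are displaced by 1 sampling time, and which of them was not tested here. Groups are given here as labelled, so that LD at 20:00 means the libraries labelled so. If the column names are displaced, these were taken at 16:00 in the light, and each SD and LD difference below also holds a difference in time of day. Nothing in the labels says whether the 2 replicates of a group were separate plots or pooled plants, so p-values measure the spread between these samples.

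An anther builds pollen inside a layer of nurse cells, the tapetum, which secretes the precursors of the pollen coat and then degenerates. As pollen matures it loads starch and makes the wall enzymes and allergens that serve pollen tube growth, while the expression of tapetal genes for the pollen coat (exine) falls. Photoperiod reaches a plant organ through the circadian clock, a loop of morning, day and evening genes in which LHY/CCA1, the pseudo-response regulators (PRR genes), GI and the evening complex (ELF3, LUX) repress or stabilise each other. RNA of a whole anther mixes these cell types, and in such data fewer cells of a type and less RNA per cell cannot be told apart.

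The 4 libraries held 19746549 to 27529649 counts, and 23487 of the 55986 loci in the file had enough counts to be tested. A gene was called a differentially expressed gene (DEG) at an adjusted p under 0.05 and a change of at least 2-fold, and a positive log2 fold change means a higher level in SD anthers. Levels are CPM (counts scaled to library size, by a common factor for all genes of a library), which compare libraries but not genes of different length. DEGs numbered 1172 (4.99% of the tested genes). SD anthers had the higher level in 288 (1.23%), and LD anthers in 884 (3.76%). The sizes were unequal as well. Among the DEGs higher in LD the median log2 fold change was -3.14, and 301 of them differed by at least 16-fold. Among those higher in SD the median was 1.51, and 31 differed by that much. Over all genes tested the median was 0.00. The number of DEGs depended on single libraries, with 373 DEGs without LD replicate 2 and 3134 without SD replicate 1. It was 615 when libraries were scaled by their totals. In the plot of all genes 22 of the 24 pollen genes lie below the line of no difference, and the 13 tapetum, exine and cuticle genes lie above it.

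**Figure D1:**
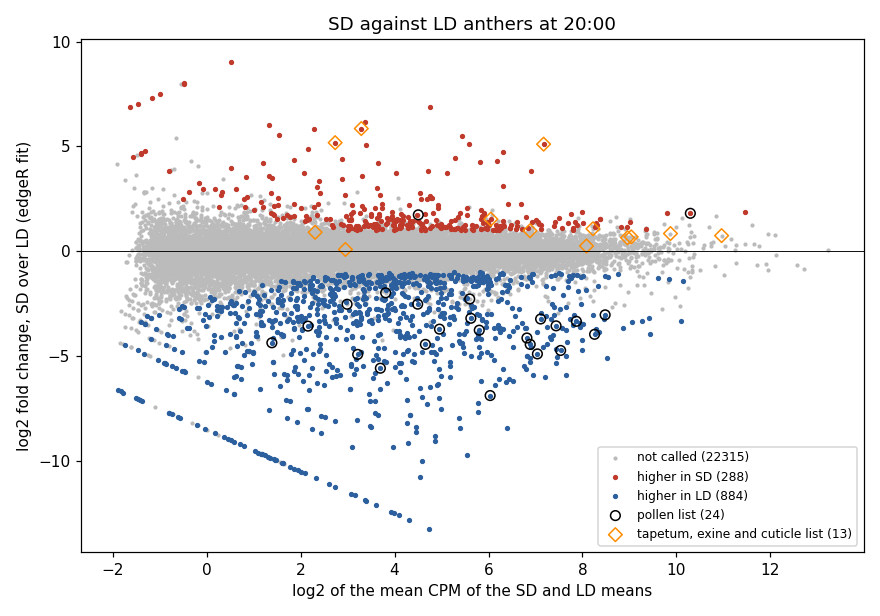
Log2 fold change of SD over LD at 20:00 (y axis) against the log2 of the average CPM of the SD and LD means (x axis) for the 23487 genes tested, with the 288 DEGs higher in SD in red and the 884 higher in LD in blue. Circles mark the 24 pollen genes and diamonds the 13 genes of the tapetum, exine and cuticle list, and the straight rows of points at the lower left are genes with 0 or a few counts in SD, whose fitted values depend on the prior count.

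Among the DEGs higher in LD were genes of maturing pollen. The sheets used here for annotation cover 494 of the 1172 DEGs. They mostly hold genes that the study selected on these libraries, and include its co-expressed groups up in LD but not those up in SD. Annotations of transcription factors that it lists as network hubs were added, some of them from groups up in SD. Lists built on these annotations, such as this one and most below, are no independent evidence of a direction. Of 24 genes annotated as pollen allergens, Ole e I proteins, profilins, pollen LIM-domain proteins, OsMATL, OsMADS63 or OsMADS68, all of which were tested, 19 were higher in LD, 1 was higher in SD and 4 did not pass. Those higher in LD were 79.2% of the list, against 3.76% over all tested genes. The median log2 fold change of the 24 was -3.64. The pollen allergen gene LOC_Os06g44470 had 56.4 and 17.6 CPM in the SD libraries and 433 and 717 CPM in the LD libraries. Both LD libraries lay above both SD libraries, with a log2 fold change of -3.96 ± 0.60 (SE, n = 2 per group) and an adjusted p of 0.027. OsPLIM2c, one of 3 LIM-domain proteins annotated as actin-binding, had 21.3 and 5.75 CPM in SD and 208 and 507 CPM in LD (log2 fold change -4.73 ± 0.74, adjusted p = 0.030). Its relatives OsPLIM2a and OsPLIM2b were lower in SD by 3.76 and 3.20 on the log2 scale. OsMATL, a pollen phospholipase whose loss induces haploid seed in cereals, had 10.4 and 3.08 CPM in SD and 32.1 and 44.5 CPM in LD.

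The size of the pollen difference varied between replicates as well as between photoperiods. In all 19 of these DEGs SD replicate 1 was above SD replicate 2, and LD replicate 2 was above LD replicate 1. The order was common among all 884 DEGs higher in LD, in 664 for the SD replicates and in 804 for the LD replicates. Summed over all 24 genes, the list had 2130 and 2481 CPM in the SD libraries and 3639 and 5293 CPM in the LD libraries. Most of the SD sum came from LOC_Os10g05980, which was higher in SD. Without it, the other 23 genes had 511 and 189 CPM in the SD libraries and 2916 and 4901 CPM in the LD libraries. The groups did not overlap, and none of the 24 genes was at 0 in any library. When LD replicate 2 was left out, 12 of the list were called higher in LD, and 11 with scaling by library totals. The 4 genes that did not pass included the MADS-box genes OsMADS68 (log2 fold change -2.53, adjusted p = 0.057) and OsMADS63 (-2.28, adjusted p = 0.063).

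One pollen-annotated gene went the other way. LOC_Os10g05980, annotated as the Ole e I protein POEI13, had 1619 and 2292 CPM in SD and 723 and 392 CPM in LD, a log2 fold change of 1.81 ± 0.36 (adjusted p = 0.046). POEI1 (LOC_Os03g14130) had 25.3 and 44.6 CPM in SD and 13.6 and 7.36 CPM in LD, with an adjusted p of 0.053.

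Enzymes that remodel pectin, the gel of plant cell walls, were another group with DEGs higher in LD. Of 44 loci annotated as polygalacturonase, pectin esterase, pectate lyase or their inhibitors, 39 were tested, 15 were higher in LD and none in SD (DESeq2 called 1 higher in SD, and 6 were higher in SD at an unadjusted p under 0.05). Those higher in LD were 38.5% of the list, against 3.76% over all tested genes. The list median was -0.45, since the other 24 lay on both sides of 0. Several had no counts at all in SD. The pectinesterase LOC_Os11g45720 had 0 counts in both SD libraries and 23.6 and 82.7 CPM in LD, at least 414-fold higher in LD against a floor of 3 counts in each SD library. The pectinesterases LOC_Os09g26360 and LOC_Os03g28090 were also at 0 counts in SD, and were at least 139-fold and 56.8-fold higher in LD. All 3 belong to a group of 51 genes that the study picked because these libraries differed in them at every time point, so they are no independent evidence of a direction. The pectate lyase LOC_Os06g38510 was present in both groups, with 16.5 and 4.14 CPM in SD and 221 and 466 CPM in LD (log2 fold change -5.07 ± 0.74, adjusted p = 0.026). LOC_Os06g35320 and LOC_Os06g35370, polygalacturonases with neighbouring locus numbers, had 12 and 3 counts, and 2 and 4 counts, in the SD libraries. In LD they had 41.7 and 61.5 CPM, and 28.8 and 87.6 CPM. In all 15 DEGs LD replicate 2 was above LD replicate 1, as for the pollen genes and for 804 of the 884 DEGs higher in LD. How reads shared by such close relatives were counted is not given in the sources used here.

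Among other genes at 0 counts in SD were the neighbouring loci LOC_Os04g42210 and LOC_Os04g42220, both annotated as GPI-anchored proteins. The first is of the same 51 genes. They had 19.7 and 60.0 CPM, and 20.2 and 48.6 CPM, in the LD libraries, at least 310-fold and 268-fold higher in LD. The la domain gene LOC_Os07g01260 was at least 66.2-fold higher, and LOC_Os04g49650, with a DUF581 domain, at least 164-fold. In all, 52 DEGs had 0 counts in both SD libraries and 7 had 0 counts in both LD libraries.

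**Figure D2:**
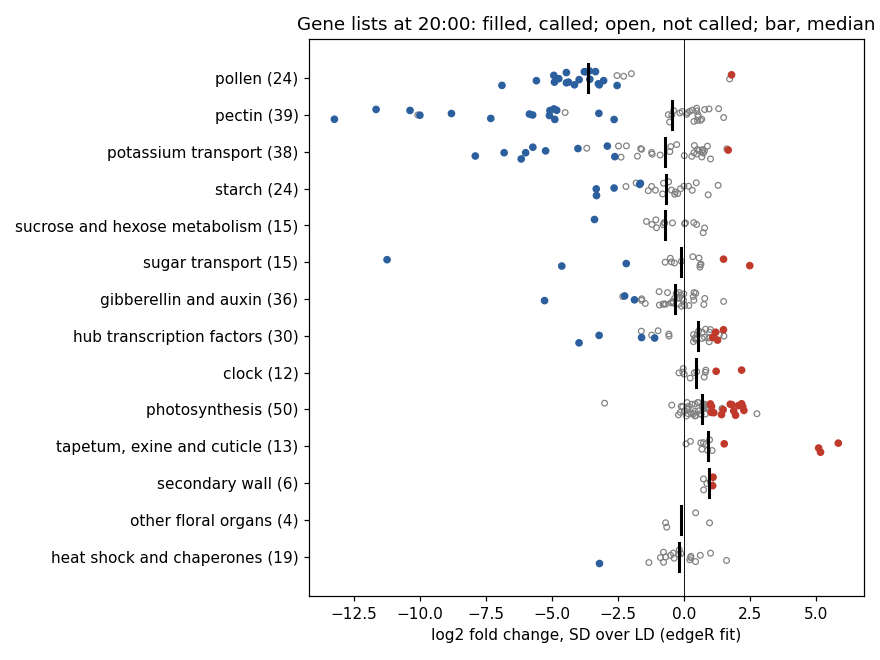
Log2 fold change of SD over LD at 20:00 for the tested members of 14 gene lists, one row per list with the number tested in brackets. Filled points were called (red, higher in SD; blue, higher in LD), open points were not, and the black bar is the list median, which is -3.64 for pollen, 0.68 for photosynthesis and 0.91 for tapetum, exine and cuticle. Fitted values of genes with 0 counts in SD depend on the prior count.

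Of 24 tested genes of starch synthesis and breakdown, 5 were higher in LD, 19 did not pass and none was higher in SD (DESeq2 called 1, and 2 were higher in SD at an unadjusted p under 0.05). Those higher in LD were 20.8% of the list, against 3.76% over all tested genes. The list median was -0.67, with 6 positive log2 fold changes. The beta-amylase LOC_Os10g32810, an enzyme that releases maltose from starch, had 287 and 117 CPM in SD and 1387 and 2622 CPM in LD (log2 fold change -3.31 ± 0.53, adjusted p = 0.032). A second beta-amylase, LOC_Os03g04770, had 166 and 60.2 CPM in SD and 828 and 1401 CPM in LD. The other 3 were the debranching enzyme ISA3 (log2 fold change -1.67), the maltose-using glucanotransferase OsDPE2 (-1.64), and OsAGPL4, a large subunit of the enzyme that makes ADP-glucose (-2.64). The starch phosphorylase Pho2 had 513 and 209 CPM in SD and 1253 and 2038 CPM in LD, with an adjusted p of 0.053. Without LD replicate 2 the starch list kept 2 calls higher in LD, and without LD replicate 1 it had 11.

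Sugar carriers went both ways. Of 15 tested carriers 2 were higher in SD (13.3%) and 3 in LD (20%), against 1.23% and 3.76% over all tested genes. OsSUT3, a sucrose transporter, had 0 counts in both SD libraries and 7.92 and 18.7 CPM in LD, at least 104-fold higher. OsSUT1 had 9.10 and 5.05 CPM in SD and 22.0 and 41.6 CPM in LD (log2 fold change -2.18 ± 0.40, adjusted p = 0.039). OsMST5, a monosaccharide transporter of the same large carrier family, had 1.13 and 1.03 CPM in SD and 16.8 and 36.1 CPM in LD, a log2 fold change of -4.62 ± 0.44 with an adjusted p of 0.012. Its relatives OsMST7 and OsMST1 were higher in SD instead. OsMST7, which is of the 51 genes that the study picked on these libraries, had 53.2 and 27.5 CPM in SD and 10.1 and 4.15 CPM in LD (2.50 ± 0.48, adjusted p = 0.043). OsMST1 had 5.72 and 7.21 CPM in SD and 2.69 and 1.86 CPM in LD (1.51 ± 0.31, adjusted p = 0.049). The other 10 of the 15 carriers did not pass, and without LD replicate 2 none was called higher in SD and 2 were higher in LD. Of 15 genes of sucrose and hexose metabolism 1 was higher in LD (6.67%, against 3.76% over all tested genes) and none in SD. It was the vacuolar-type invertase OsINV2, with 12.9 and 8.60 CPM in SD and 73.6 and 151 CPM in LD (log2 fold change -3.39 ± 0.40, adjusted p = 0.016). Without SD replicate 1, 8 of these 15 were called higher in LD.

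Ion and hormone genes that passed were mostly higher in LD, as were 884 of the 1172 DEGs. The share of tested genes that were higher in LD was 23.7% for potassium transport and 8.33% for gibberellin and auxin. Over all tested genes it was 3.76%. Of 38 tested genes for potassium transport, 9 were higher in LD and 1 in SD, 8 of the 9 annotated as cation/proton exchangers (CHX) and the other as the potassium channel AKT1. Of the 9, 7 had under 1 CPM on average in SD. Without LD replicate 2 the list had 3 calls higher in LD, and without SD replicate 1 it had 15. OsCHX14 had 0.391 and 0.329 CPM in SD and 4.81 and 6.85 CPM in LD (log2 fold change -4.01 ± 0.40, adjusted p = 0.013). The sodium transporter OsHKT1;1 was the 1 that was higher in SD, with 4.21 and 6.92 CPM against 1.79 and 1.68 CPM. Of 36 tested genes for gibberellin and auxin 3 were higher in LD and none in SD (1 at an unadjusted p under 0.05, none with DESeq2). Without LD replicate 2 the list had 1 call. OsGA20ox3, an oxidase of gibberellin synthesis, had 134 and 97.5 CPM in SD and 384 and 459 CPM in LD (-1.87 ± 0.23, adjusted p = 0.018). The other 2 were LOC_Os05g43880, which is annotated as the inactivating enzyme gibberellin 2-beta-dioxygenase, and the auxin efflux carrier LOC_Os11g02950, lower in SD by 5.27 and 2.24 on the log2 scale. DAO, which oxidises auxin and is needed for anther dehiscence, had 81.7 and 99.0 CPM in SD and 189 and 154 CPM in LD, under the 2-fold limit (log2 fold change -0.92, adjusted p = 0.046).

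SD anthers had higher levels of several genes for the pollen coat and for the tapetum. In the list of 13 genes for tapetum, exine and cuticle, 4 were higher in SD and none in LD (none at an unadjusted p under 0.05, none with DESeq2), all 13 had a positive log2 fold change, and the median was 0.91. OsLAP6, a polyketide synthase that makes sporopollenin precursors, had 299 and 262 CPM in SD and 9.85 and 6.39 CPM in LD (5.11 ± 0.27, adjusted p = 0.0031). OsABCG15, the transporter that exports such precursors from the tapetum, had 15.6 and 10.4 CPM in SD and 0.471 and 0.233 CPM in LD (5.18 ± 0.42, adjusted p = 0.010). HTH1, needed for anther cuticle, had 348 and 588 counts in SD and 8 and 6 counts in LD (5.85 ± 0.31, adjusted p = 0.0031). ONI2, an enzyme of very-long-chain fatty acid synthesis, was higher by a smaller amount, with 70.6 and 126 CPM against 36.3 and 31.7 CPM (1.53 ± 0.28). The wax gene WDA1, with 1024 and 1384 CPM in SD and 634 and 707 CPM in LD, had an adjusted p of 0.084. The glucanase Osg1, which dissolves callose around microspores, had 8.02 and 7.94 CPM in SD and 8.01 and 7.04 CPM in LD, a difference of 0.09 ± 0.21 on the log2 scale. OsLAP6, OsABCG15 and HTH1 are of the 51 genes that the study picked on these libraries, so here too they are no independent evidence. The 4 called were 30.8% of the list, against 1.23% over all tested genes, and 3 of the list were called with scaling by library totals. The list median was 1.06 without SD replicate 1 and 0.72 without SD replicate 2. It was 1.05 without LD replicate 1 and 0.90 without LD replicate 2.

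Other annotated genes with large differences in the same direction came from that group too. The cytochrome P450 gene LOC_Os04g48210 had 93.9 and 75.6 CPM in SD and 0.990 and 2.70 CPM in LD (5.51 ± 0.42). OSC4, an oxidosqualene cyclase, had 237 and 213 CPM against 20.2 and 11.1 CPM, and the protease OsSub42 had 144 and 130 CPM against 7.87 and 6.06 CPM. Outside it, KAR, listed under lipid metabolism, had 82.2 and 68.2 CPM in SD and 4.86 and 1.91 CPM in LD (4.47 ± 0.41). The aquaporin LOC_Os01g02190 had 53.0 and 45.0 CPM against 4.67 and 2.24 CPM (3.83 ± 0.34), while the aquaporins LOC_Os02g44080 (0 counts in SD, at least 15.1-fold) and LOC_Os04g46490 were higher in LD. Among lipid transfer proteins LTPL28 (LOC_Os03g59380) had 3609 and 5245 CPM in SD and 1475 and 974 CPM in LD (1.85 ± 0.34). LTPL9 (LOC_Os11g02424) had 428 and 488 CPM in SD and 1028 and 1194 CPM in LD (-1.28 ± 0.21), and the replicates of each group lay close together. Of 42 tested lipid transfer proteins 2 were higher in SD (4.76%) and 4 in LD (9.52%), against 1.23% and 3.76% over all tested genes. This split was not stable, with 8 and 6 by DESeq2, 9 and 3 without SD replicate 1, and 0 and 3 without LD replicate 2.

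**Figure D3:**
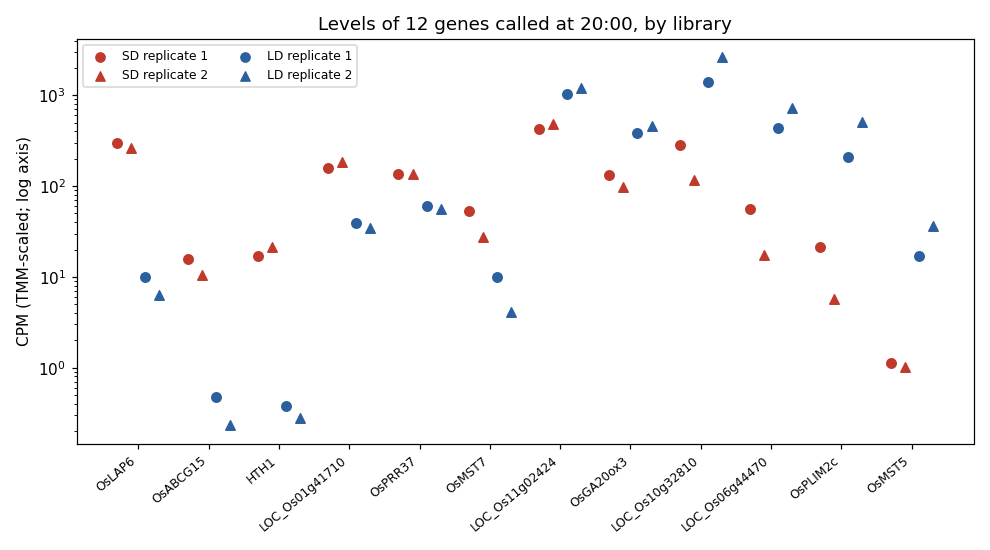
CPM on a log axis of 12 genes called at 20:00 in each of the 4 libraries (red, SD; blue, LD; circles, replicate 1; triangles, replicate 2). OsLAP6, OsABCG15 and HTH1 are separated by over an order of magnitude with close replicates, whereas the pollen genes LOC_Os06g44470 and OsPLIM2c also differ between the replicates of each group, for example 21.3 and 5.75 CPM of OsPLIM2c in SD.

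Secondary walls of anthers are built from cellulose and lignin in the endothecium and the vascular strand, and they let the anther open. The 6 tested genes of this list were all higher in SD on average, with a median of 0.94. Of these 2 passed (33.3%, against 1.23% over all tested genes). OsSWN1, a transcription factor that switches on secondary wall genes, had 151 and 162 CPM in SD and 82.6 and 63.6 CPM in LD (1.10 ± 0.18, adjusted p = 0.032). OsCTL1, a chitinase-like protein needed for cellulose, had 295 and 313 CPM against 160 and 121 CPM (1.11 ± 0.20, adjusted p = 0.036). The cellulose synthases OsCesA4, OsCesA7 and OsCesA9 had log2 fold changes of 0.88, 0.75 and 0.75 and adjusted p-values of 0.071, 0.084 and 0.089. Neither OsSWN1 nor OsCTL1 passed without LD replicate 2.

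Of 18 genes with a role in male fertility, which share members with the lists above, 5 were higher in SD and 1 in LD. These were 27.8% and 5.56% of the list, against 1.23% and 3.76% over all tested genes. The largest log2 fold change of the list, 5.85, was that of HTH1. It is of the 51 genes that the study picked on these libraries, and so is no independent evidence of a direction. CAP1, an arabinokinase-like protein of pollen development, had 373 and 370 CPM in SD and 160 and 136 CPM in LD (1.32 ± 0.17, adjusted p = 0.021). OsFRDL1, a citrate transporter, was the 1 that was higher in LD, with 6.46 and 5.97 CPM against 12.0 and 15.3 CPM. CSA, a MYB factor of sugar partitioning whose mutant is sterile in short days, had 103 and 106 CPM in SD and 71.4 and 46.1 CPM in LD and did not pass (0.82 ± 0.23, adjusted p = 0.081). OsUgp1 did not pass either, at 0.38 ± 0.18. Of the 30 transcription factors that the study chose on these libraries as network hubs, 4 were higher in SD and 4 in LD. Each was 13.3% of the list, against 1.23% and 3.76% over all tested genes. The split was 9 and 3 without SD replicate 1, and 0 and 2 without LD replicate 2. The LIM protein OsWLIM1 (LOC_Os12g32620) had the largest difference of the 4 higher in SD, with 42.4 and 72.3 CPM against 22.4 and 18.1 CPM. The zinc finger ZOS2-13 (LOC_Os02g44120) had the largest of the 4 higher in LD, with 5.92 and 2.05 CPM against 43.0 and 79.1 CPM.

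Genes for photosynthesis were among those higher in SD. The list held 53 loci. They were those that the study's gene ontology sheets list under photosynthesis, a choice made on these libraries, and OsCAB1R, put in by name. OsCAB1R is also one of the clock and rhythm genes below. Of the 53, 50 were tested and 14 were higher in SD (28%, against 1.23% over all tested genes). None was higher in LD (1 at an unadjusted p under 0.05, none with DESeq2), and 44 had a positive log2 fold change. The median was 0.68. OsCAB1R, a chlorophyll-binding protein of the light-harvesting complex, had 12.8 and 15.1 CPM in SD and 3.63 and 2.47 CPM in LD (2.19 ± 0.27, adjusted p = 0.019). LOC_Os01g41710 had 157 and 186 CPM in SD and 38.8 and 34.1 CPM in LD (2.23 ± 0.17, adjusted p = 0.0088). LOC_Os08g33820 had 18.5 and 25.6 CPM against 4.43 and 4.66 CPM (2.28 ± 0.23). In all 14 SD replicate 2 was above SD replicate 1, the reverse of the pollen genes. Of all 288 DEGs higher in SD, only 65 had SD replicate 1 above SD replicate 2. Only 5 of the list were called without LD replicate 2.

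Clock genes at 20:00 differed less than most of the groups above. Of 12 clock and rhythm genes, OsPRR37 and OsCAB1R passed both limits, and neither did without LD replicate 2. These 2 were 16.7% of the list, against 1.23% over all tested genes. None of the 12 was called lower in SD by edgeR or DESeq2, or at an unadjusted p under 0.05. OsPRR37, a day-phase repressor that delays flowering in long days, had 137 and 135 CPM in SD and 60.6 and 55.7 CPM in LD (1.23 ± 0.15, adjusted p = 0.017). OsPRR73, of the same family, had 232 and 246 CPM in SD and 128 and 140 CPM in LD, and passed the adjusted p but not the 2-fold limit (0.84 ± 0.16, adjusted p = 0.041). OsGI, the clock gene upstream of the florigen pathway, had 821 and 871 CPM in SD and 455 and 505 CPM in LD with an adjusted p of 0.060. OsCCA1, of the morning loop, had 29.9 and 30.4 CPM in SD and 12.5 and 22.7 CPM in LD (0.77 ± 0.28, adjusted p = 0.14). OsFKF1, OsLUX and OsZTL2 had log2 fold changes of 0.02 ± 0.16, -0.04 ± 0.19 and -0.02 ± 0.14, so that their levels overlapped between the groups.

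The day course is given with CPM scaled over all 24 libraries and times as labelled. A displacement of the LD times would shift each LD course by 1 sampling time against the SD course. OsCAB1R in the LD libraries had 484 and 563 CPM as labelled at 08:00, 203 and 120 CPM at 16:00, and 3.43 and 2.36 CPM at 20:00. In SD it had 539 and 496 CPM at 08:00, 314 and 447 CPM at 16:00, and 12.2 and 14.5 CPM at 20:00. What such courses say about the LD times was not tested. OsGI in LD had 1088 and 1104 CPM at 16:00 and 430 and 482 CPM at 20:00, whereas in SD it had 715 and 766 CPM at 16:00 and 784 and 836 CPM at 20:00. LD thus was above SD at 16:00 and below it at 20:00. OsFKF1, a blue-light receptor, had 119 and 117 CPM in LD and 66.7 and 72.6 CPM in SD at 16:00, and 22.9 and 22.1 CPM and 20.8 and 25.0 CPM at 20:00. OsLUX had 27.5 and 30.3 CPM in LD and 9.39 and 12.0 CPM in SD at 16:00, and at 20:00 all 4 libraries were between 9.99 and 11.9 CPM. OsPRR37 was above LD in SD at all 3 of these times, with 58.3 and 37.8 CPM against 10.4 and 15.1 CPM at 00:00. The change of the photoperiod difference from 16:00 to 20:00 did not pass for any of the 12 genes. It was 1.39 ± 0.30 on the log2 scale for OsGI (adjusted p = 0.097) and 1.41 ± 0.40 for OsLUX (adjusted p = 0.098).

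**Figure D4:**
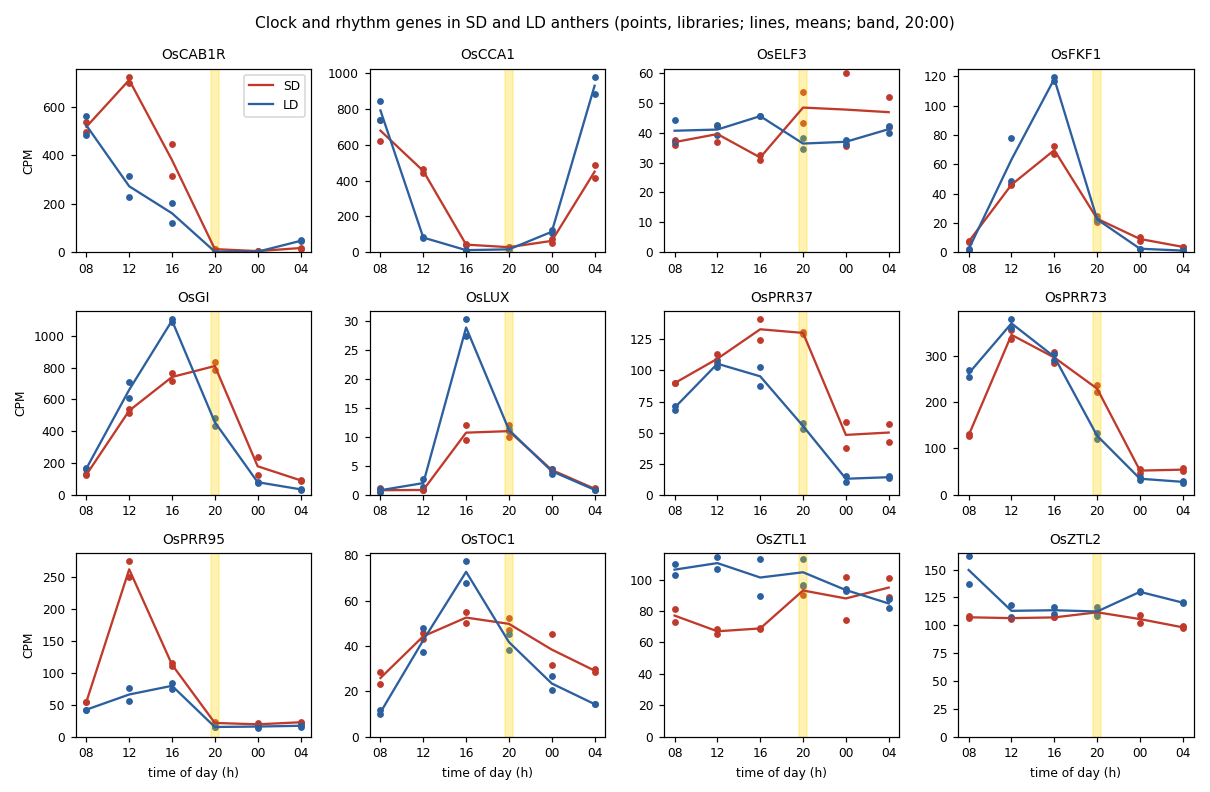
CPM of the 12 clock and rhythm genes (y axis, from 0) at the 6 time points from 08:00 to 04:00 (x axis) in SD (red) and LD (blue) anthers. Points are libraries, lines join the group means and the band marks 20:00, where OsPRR37 has 131 and 130 CPM in SD and 57.3 and 53.2 CPM in LD.

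Whether the difference at 20:00 was unlike that at the neighbouring times was tested across all 24 libraries. Between 20:00 and 16:00 the photoperiod difference changed for 5 of 25498 genes (0.0196%), each in the direction of more RNA in SD at 20:00. With another scaling (RLE) or a replicate block 5 genes passed, with library totals 7 and with a filter of at least 1 CPM in 2 libraries 6. Each of these sets held the same 5 genes. Neither count nor direction held in the fits that follow. In a fit of the 8 libraries of the 2 time points 571 genes passed, 260 in that direction and 311 in the other, and without SD replicate 1 of 20:00 1337 passed, 422 in that direction and 915 in the other. Both larger sets held the same 5 genes. Between 20:00 and 00:00 no gene passed in edgeR (0%), with 3063 genes at an unadjusted p under 0.05 and a smallest adjusted p of 0.061, and 46 passed without SD replicate 1 of 20:00. The smallest adjusted p among annotated DEGs was 0.097 against 16:00 and 0.13 against 00:00, the latter for the metal cation transporter LOC_Os03g29850.

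The 5 genes, which were singled out after their values were seen, carry no annotation in the study's sheets, and all changed sign between the libraries labelled 16:00 and 20:00. The part of the doubt about LD times in this was not tested. LOC_Os09g35790 had 15.4 and 12.2 CPM in LD and 4.38 and 4.61 CPM in SD at 16:00. At 20:00 it had 1.43 and 1.42 CPM in LD and 4.81 and 4.81 CPM in SD. LD lay above SD at 16:00 and below it at 20:00. LOC_Os03g27019 had 90.9 and 96.7 CPM in LD and 68.0 and 65.8 CPM in SD at 16:00, and 9.40 and 11.3 CPM against 42.8 and 52.7 CPM at 20:00. For LOC_Os07g48570, LOC_Os03g04150 and LOC_Os02g28980 the log2 difference at 16:00 was -0.70, -1.21 and -1.26, and at 20:00 it was 1.25, 0.95 and 0.96. At 00:00 all 5 were still higher in SD, by 1.20 to 3.05 on the log2 scale.

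Most DEGs of 20:00 had the same direction at the other time points, which are separate libraries. Of the 884 DEGs higher in LD, 99.7% of those tested at 08:00 were also lower in SD there, as were 98.5% at 12:00, 86.5% at 16:00, 99.2% at 00:00 and 96.5% at 04:00. Over all genes tested at 20:00 the share with the same sign was between 55.7% and 73.5%. Of the 288 DEGs higher in SD, between 78.6% (04:00) and 97.2% (00:00) kept their sign. Their median log2 fold change was 2.57 at 12:00 and 0.51 at 04:00, and that of the DEGs higher in LD was -6.37 at 12:00 and -1.35 at 16:00. The pollen list had its smallest median difference at 16:00 (-1.30), and the photosynthesis list changed sign at 04:00 (-0.69). Medians of the tapetum, exine and cuticle list were 2.13 at 12:00, 0.62 at 16:00 and -0.02 at 04:00.

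**Figure D5:**
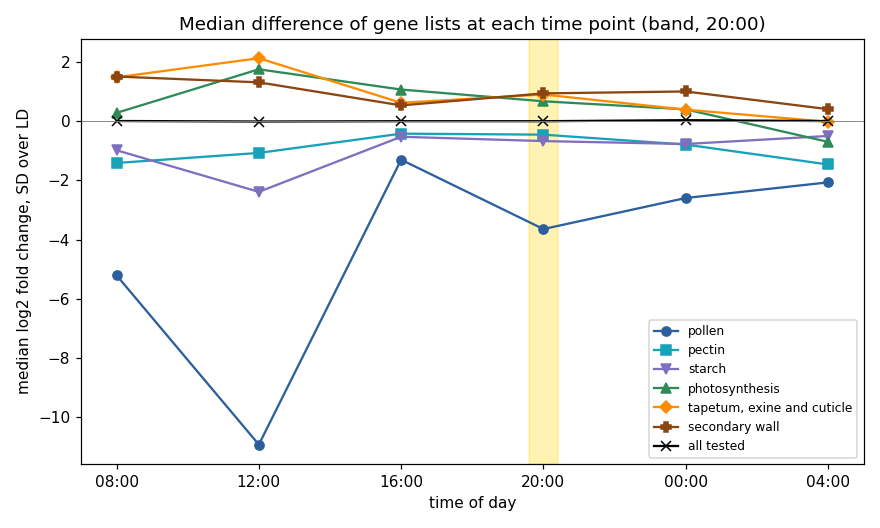
Median log2 fold change of SD over LD (y axis) at each time point (x axis) for 6 gene lists and for all genes tested, each point from the 4 libraries of that time; the band marks 20:00. The pollen list lies below 0 at every time, from -10.93 at 12:00 to -1.30 at 16:00, and the median of all genes stays near 0.

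Some markers of cell types differed between SD and LD at 20:00, and others did not pass. The sum of the pollen genes above was higher in LD, with or without LOC_Os10g05980. The 5 tapetum markers OsLAP6, OsABCG15, HTH1, WDA1 and Osg1 summed to 1363 and 1686 CPM in SD and 653 and 721 CPM in LD, none of them at 0. Most of this sum was WDA1, with 1024 and 1384 CPM in SD and 634 and 707 CPM in LD. WDA1 did not pass (adjusted p = 0.084 in edgeR), and neither did Osg1 (log2 fold change 0.09 ± 0.21). OsLAP6, OsABCG15 and HTH1 are of the genes that the study picked on these libraries. The 4 MADS-box genes of other floral organs (OsMADS1, OsMADS6, OsMADS22, OsMADS47) summed to 327 and 397 CPM in SD and 278 and 266 CPM in LD, and none passed in edgeR or DESeq2 (3 had an unadjusted p under 0.05). The meiosis gene LOC_Os06g35970 had 1079 and 1713 CPM in SD and 754 and 498 CPM in LD (adjusted p = 0.085 in edgeR, called by DESeq2). The other meiosis gene, LOC_Os12g41350, had 15.1 and 15.2 CPM in SD and 17.6 and 22.9 CPM in LD (log2 fold change -0.42, adjusted p = 0.21). Of 19 heat shock and chaperone genes, 1 was higher in LD (5.26%), near the share of 3.76% over all tested genes. The list summed to 744 and 615 CPM in SD and 691 and 776 CPM in LD. The part of pollen and tapetum content, or of anther stage, in the gene differences above was not tested, and it cannot be told apart from photoperiod, or from the sampling time of the LD libraries, in these 4 libraries.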

How the data were processed

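RNA of rice anthers was sequenced on an Ion Proton instrument. The authors filtered reads with FastQC, aligned them with MapSplice to the Nipponbare genome and deposited raw read counts per locus. The counting tool, strand and treatment of multimapping reads are not given in the sources used here. The design text gives LD 14 h of darkness, whereas the study's methods describe long light, which was followed here. All 24 count columns were matched to samples by name. Totals of the LD columns follow the study's list of mapped reads only with a displacement of 1 sampling time, so the LD sampling times are in doubt, and no column was reassigned.

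Counts of the 4 libraries of 20:00 were filtered (filterByExpr), scaled by TMM and tested with edgeR 4.0.16 in R 4.3.3 (quasi-likelihood F-test, Benjamini-Hochberg adjustment over all genes tested). The SE of a log2 fold change is its size divided by the square root of F. Changes of the photoperiod difference between times were tested in 1 fit of 24 libraries in 12 groups, at an adjusted p under 0.05. Scripts were tested on simulated data. DESeq2 1.42.0, other scalings and filters, a replicate block and leaving out each library were alternatives. Where both SD libraries had 0 counts, the fold is a lower bound against 3 counts per library. Bounds cover counting error only.

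Genes named are the clock genes, genes with symbols in the lists, the 10 largest changes per direction above 5 CPM and the 5 highest levels per direction among annotated genes called, the 5 smallest interaction p-values per test, and list members. The lists follow annotations in the study's sheets, and members and lists were chosen with earlier results of these data known. Most annotations come from genes that the study selected on these libraries. These are its DEGs for transport, carbohydrate and lipid metabolism, and its turquoise and magenta modules, groups of co-expressed genes up in LD. The sheets of its modules up in SD were not used for annotation. Annotations of the transcription factors that it lists as network hubs were used, and some of these are in modules up in SD. Counts and medians of lists built on annotations are no independent evidence of a direction. Locus sequences were not used here.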

Additional observations from a re-analysis of the deposited data

Results flagged for a closer look

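For 5 loci the difference between SD and LD at 20:00 was unlike that at 16:00 by a test of the difference itself (edgeR, 24 libraries). The log2 difference at 20:00 minus that at 16:00 was 3.37 ± 0.36 (SE) for LOC_Os09g35790 (adjusted p = 0.0015), 2.70 ± 0.31 for LOC_Os03g27019 (adjusted p = 0.0021) and 1.96 ± 0.26 for LOC_Os07g48570 (adjusted p = 0.0090). It was 2.17 ± 0.29 for LOC_Os03g04150 (adjusted p = 0.010) and 2.22 ± 0.33 for LOC_Os02g28980 (adjusted p = 0.024). In all 5, both LD libraries were above both SD libraries at 16:00 and below them at 20:00. Without LD replicate 2 of 20:00, 2 of the 5 passed. The times are as labelled, and those of the LD libraries are in doubt.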

How the results depend on the processing

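Genes called at 20:00 (1172, of which 288 were higher in SD and 884 in LD) numbered 1961 (515 and 1446) with DESeq2 and 615 (159 and 456) with scaling by library totals. They numbered 1776 (467 and 1309) in a fit of 24 libraries and 288 (33 and 255) when tested against a fold of 2. With all genes of at least 1 count, 453 were higher in SD. Leaving out 1 library gave 373 to 3134 calls, 47 to 801 higher in SD and 326 to 2333 higher in LD. The labels do not say whether the replicate numbers pair the libraries. Differences between replicates 1 and 2 had a correlation of -0.20 between SD and LD across genes, which cannot decide it. A fit with replicate as a block gave 788 calls, 138 higher in SD and 650 in LD. With the crossed pairing, chosen after seeing the data, 2188 were called (555 and 1633). The 5 genes that differed between 20:00 and 16:00 became 571 with the 8 libraries of both times and 2 to 1337 without 1 library, and for 00:00 the range was 0 to 46. Against 16:00, 5 genes passed with another scaling (RLE) or a replicate block, 7 with library totals and 6 with at least 1 CPM in 2 libraries. The same 5 were in each of these sets. The causes were not tested. None of the 124 named DEGs changed direction in any of these alternatives, 57 still passed without LD replicate 2, and 76 with library totals. Genes near 0 changed sign. OsLUX was at 0.0019 with library totals and between -0.17 and 0.074 when 1 library was left out. OsZTL2 was at 0.023 with library totals and between -0.077 and 0.027 when 1 was left out (0.0050 without SD replicate 2). OsFKF1 ranged from -0.12 (without SD replicate 2) to 0.13 (without SD replicate 1), and was at -0.015 without LD replicate 2. With 2 libraries per group, a gene that did not pass was not shown to be equal.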

Other observations

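Several other gene families, chosen after their values were seen, held DEGs of 20:00. Their members are only loci that the sheets used here annotate, mostly genes that the study selected on these libraries. They are not whole families, and their counts are no independent evidence of a direction. Over all tested genes 1.23% were higher in SD and 3.76% in LD. Of 14 tested genes annotated as chitinase, hevein or wound-induced proteins, which are known from plant defence, 6 were higher in LD and none in SD. The wound-induced gene WIP5 (LOC_Os11g37970) had 3.13 and 4.50 CPM in SD and 32.1 and 36.5 CPM in LD (log2 fold change -3.16 ± 0.23, adjusted p = 0.0075). In all 6 SD replicate 2 was above SD replicate 1, unlike the 19 pollen genes higher in LD. Of 62 tested GDSL lipases 6 were higher in SD and none in LD. LOC_Os06g06250 had 443 and 538 CPM in SD and 201 and 140 CPM in LD (1.52 ± 0.24, adjusted p = 0.030).

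Both loci annotated as ROPGEF7, activators of small GTPases, were higher in LD. They and the proton pump LOC_Os02g55400 are of the 51 genes that the study picked on these libraries, so they are no independent evidence of a direction. LOC_Os01g48410 had 1.03 and 1.21 CPM in SD and 35.5 and 108 CPM in LD (-5.99 ± 0.63, adjusted p = 0.013). Of 5 phosphatidylinositol-4-phosphate 5-kinases 3 were higher in LD, as were 3 of 9 phospholipases C and D, 5 of 11 clathrin and vesicle proteins and 2 of 12 exo70 genes. The plasma membrane proton pump LOC_Os02g55400 had 0.636 and 0.0732 CPM in SD and 40.6 and 124 CPM in LD, with 2 of 14 genes of its family called.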
